A study of Mus musculus with 2 samples.

Results

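Natural killer cells of the mouse spleen were taken from 2 droplet libraries, 1 of splenocytes with the M694I change of Mefv knocked in and 1 of wild-type splenocytes. Members were chosen by their own UMIs (unique molecular identifiers, each standing for 1 captured RNA molecule): a kept barcode needed 2 or more summed over Ncr1, Klrb1c, Klre1, Klra8 and Klra4, with 0 of the T cell genes Cd3d, Cd3e and Cd3g and 0 of the B cell genes Cd79a and Ms4a1. They numbered 405 of 18316 kept barcodes, 143 in the knock-in library and 262 in the wild-type library. The Mefv product, pyrin, triggers inflammasome assembly, and M694I is a change known from people with familial Mediterranean fever. Both genotypes were age-matched. The sample titles name 1 mouse each, and the sources used here give neither strain nor age nor how many animals were pooled. Spleens were taken apart mechanically and red cells were lysed, with no sort for any lymphocyte.

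NK cells are innate lymphocytes that kill infected or transformed cells by releasing perforin and granzymes, and that secrete interferon gamma and chemokines. They carry no rearranged antigen receptor. Their activity is set by a balance of activating receptors, which signal through the adaptors DAP12 (Tyrobp), DAP10 (Hcst) and Fc receptor gamma (Fcer1g), and inhibitory receptors, many of which read MHC class I on the target. In the mouse the Ly49 receptors (Klra genes) and the CD94/NKG2 receptors (Klrd1 with Klrc genes) do this reading. Mouse NK cells mature in spleen and bone marrow from Cd27-high stages to stages with CD11b (Itgam), KLRG1 and the egress receptor S1pr5.

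There were 9000 barcodes and 25193274 UMIs in the knock-in library, against 10449 barcodes and 32797052 UMIs in the wild-type library. Barcodes were kept from 500 UMIs and 200 genes upward if mitochondrial UMIs stayed below 10%, which left 8583 in the knock-in and 9733 in the wild-type library. NK members had a median of 2017 UMIs in the knock-in and 2287.5 UMIs in the wild-type library, and their UMIs summed to 313096 in the knock-in and 671858 in the wild-type library. The libraries shared 27 barcode sequences, of which 23 were kept in both, and no barcode was a member in both. Each genotype was a single library, so the genotypes were compared without any test. Intervals given beside these values are exact 95% intervals that cover counting error only, and genotype cannot be told apart from animal, library and handling.

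Markers outside the rule bore out the name. Tyrobp gave a UMI in 98.6% of knock-in and 98.5% of wild-type members, Nkg7, a granule membrane protein, in 97.9% of knock-in and 96.6% of wild-type members, and Gzma, a granzyme, in 82.5% of knock-in and 93.1% of wild-type members. In B cells, which should lack them and had medians of 1884 (knock-in) and 2360.5 UMIs (wild-type), the shares were 12.1% of knock-in and 12.9% of wild-type cells for Tyrobp, 0.307% of knock-in and 0.2997% of wild-type cells for Nkg7, and 0.163% of knock-in and 0.442% of wild-type cells for Gzma. Some defining genes of T cells were at or near 0. Themis had 0 UMIs in both libraries, Cd6 had 0 in the knock-in and Cd5 had 0 in the wild-type library. The T cell list as a whole was not absent, since 17 of its 20 genes gave UMIs in members of each library. At least 2 UMIs summed over this list were held by 90.2% of knock-in and 88.2% of wild-type members. Trac, the constant segment of the T cell receptor alpha chain, was found in 6.99% of knock-in and 10.7% of wild-type members, against 1.88% of knock-in and 2.27% of wild-type B cells. Transcripts of the beta chain constant segment Trbc1 were far more frequent, in 65.7% of knock-in and 59.9% of wild-type members, against 0.434% of knock-in and 0.710% of wild-type B cells. Leaving out every member with a Trac, Trbc1 or Trbc2 UMI kept 33 knock-in and 75 wild-type cells. Of the 12 monocyte and macrophage markers, 9 were at 0 in knock-in and 8 in wild-type members, and all 188 knock-in UMIs of Lyz2 (lysozyme) lay in 1 cell. Mefv gave 0 UMIs in 143 knock-in members, which allows a share of up to 2.10% of cells with a Mefv UMI, and 0 UMIs in 262 wild-type members, which allows up to 1.15%. This limits cells with a UMI and not cells that express the gene, so the targeted gene does not check the genotype within these cells.

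The receptor genes of the rule were unevenly spread over the members, and are given as a description since they chose them. Klra4 (Ly49D) gave a UMI in 59.4% of knock-in and 60.7% of wild-type members, Klra8 (Ly49H, the activating receptor for a cytomegalovirus protein) in 55.2% of knock-in and 64.1% of wild-type members, and Klre1 in 53.1% of both. Klrb1c (NK1.1) did so in 46.2% of knock-in and 40.8% of wild-type members, and Ncr1 (NKp46) in 38.5% of knock-in and 26.0% of wild-type members. Both Klra8 and Klra4 were found in 48 of 143 knock-in and 104 of 262 wild-type members. A member held UMIs of 2.03 Ly49 genes on average in the knock-in and 2.02 in the wild-type library, out of the 7 Ly49 genes counted. Ly49 genes are close copies of each other, so reads may have been split between them, and which strain's gene set the mice carried is not given.

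At the edge of the rule, 38 knock-in and 57 wild-type members held exactly 2 rule UMIs, while 41 knock-in and 52 wild-type barcodes held 1 and stayed outside. Gzma was at 5888 CPM (UMIs of a gene per 1e6 UMIs of the class sum) in knock-in and 6110 CPM in wild-type members just inside, and at 2011 CPM in knock-in and 4789 CPM in wild-type barcodes just outside. Cd74, the invariant chain of antigen-presenting cells, was at 137 CPM in knock-in and 207 CPM in wild-type members just inside, and at 11998 CPM in knock-in and 2549 CPM in wild-type barcodes just outside. Of the barcodes just outside, 41.5% of knock-in and 26.9% of wild-type ones held a Cd74 UMI. Nkg7 was found in 82.9% of knock-in and 84.6% of wild-type ones, and Fcer1g in 95.1% and 100%. The rule thus left out barcodes with NK markers. A further 43 knock-in and 51 wild-type barcodes with at least 2 rule UMIs held a Cd3 UMI and were left out.

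NK cells were a smaller share of the knock-in library. They made up 1.67% of its kept barcodes (1.41% to 1.96%), against 2.69% of those of the wild-type library (2.38% to 3.03%), a log2 ratio of -0.69 (-0.996 to -0.39), or 1.62-fold lower. The intervals of the 2 shares did not overlap. Among kept barcodes without Cd79a and Ms4a1, NK cells were 5.70% in the knock-in and 9.58% in the wild-type library. Ccl5-positive CD8 T cells, the T cells used for comparison, differed the other way, with 2.39% of knock-in and 1.5% of wild-type kept barcodes (log2 ratio 0.67, 0.36 to 0.99). Over 8 other choices of filter, rule, depth and denominator the NK log2 ratio ran from -1.003, without members holding Trac, Trbc1 or Trbc2 UMIs, to -0.48, without Klra8 and Klra4 in the rule, and every interval stayed below 0.

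**Figure D1:**
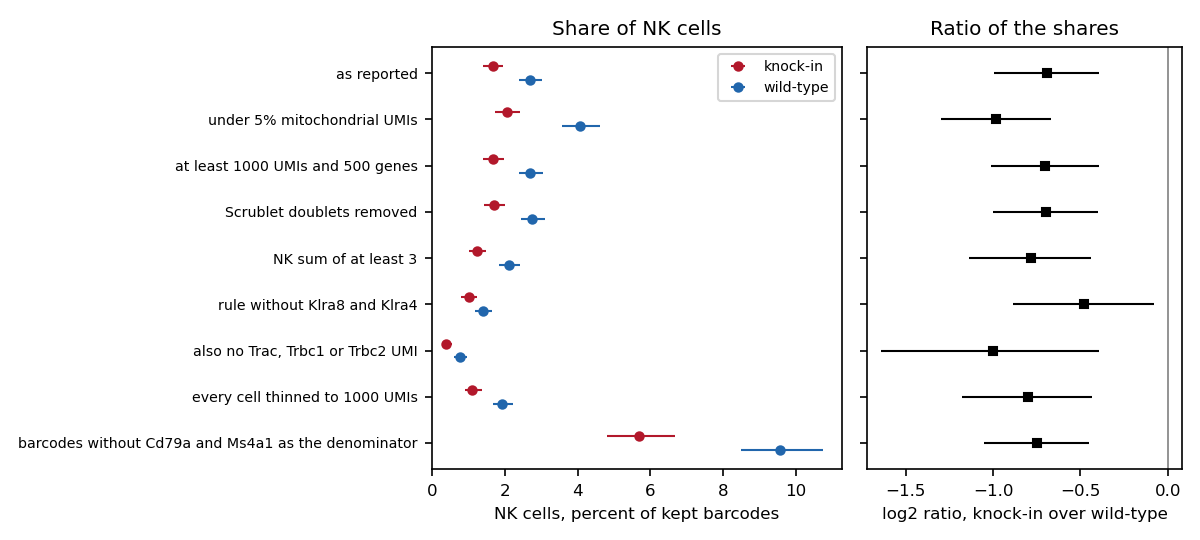
Left, NK cells as a percent of kept barcodes in the knock-in (red, upper) and wild-type (blue, lower) library under the rule as reported and under 8 other choices (the last row takes barcodes without Cd79a and Ms4a1 as its denominator), with exact 95% intervals. Right, the log2 ratio of the 2 shares, knock-in over wild-type, with its exact 95% interval; the points lie between -1.003 and -0.48.

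NK cells were next compared with Ccl5-positive CD8 T cells of the same libraries (205 knock-in and 146 wild-type cells with Cd8a or Cd8b1 and Cd3 UMIs, at least 2 Ccl5 UMIs, and no Cd4, Cd79a or Ms4a1). NK cells expressed DAP12 and Fc receptor gamma, Ly49 and NKR-P1 receptors, granzymes A and B, perforin and inflammatory chemokines at higher levels than the CD8 T cells, and had lower levels of T cell genes such as Trac and of the lymph node homing receptor Ccr7. The test was edgeR's quasi-likelihood test on UMIs summed per library and class, with the library as a block and Benjamini-Hochberg adjustment, on 6050 genes; genes of either membership rule were left out. At an adjusted p under 0.05, 598 genes (9.88%) were higher and 604 (9.98%) lower in NK cells, 19.9% in either direction. These fold changes rest on TMM factors, which centre the median gene at -0.01. Scaled to UMI totals instead, as the CPM values are, the median shifted upward by 0.41 to 0.40, and 1591 genes were higher and 346 lower, so small fold changes are relative to the median gene. This scaling was added after seeing the data, and calls of single genes named here that it ends are given beside them. Each class was measured in 2 libraries that differ in genotype, so the p-values speak only for these 2 libraries. The fit left 1 residual degree of freedom per gene, and edgeR drew on dispersion estimates shared over all genes. A small p-value is therefore not a measure of how alike the 2 libraries were for that gene. The CD8 T cells were deeper, with medians of 4062 UMIs in the knock-in and 4429 UMIs in the wild-type library.

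Receptor adaptors differed in both directions. Tyrobp (chr7:30413760-30417585, plus strand, GRCm38) had 3469 CPM in knock-in and 2578 CPM in wild-type NK cells, against 18.2 CPM in knock-in and 13.6 CPM in wild-type CD8 T cells, a log2 fold change of 7.17 ± 0.19 (SE; edgeR adjusted p = 1.5e-17). Fcer1g (chr1:171229572-171234365, minus strand) had 3609 CPM in knock-in and 2603 CPM in wild-type NK cells, against 18.2 CPM in both CD8 sums, 7.03 ± 0.20 on the same scale. Both genes had the same direction in both libraries, as did 4515 of 6050 genes tested. Lat2, an adaptor of innate and B cells, rose by 5.88, with 36 UMIs in knock-in and 76 UMIs in wild-type NK cells against 1 UMI in CD8 T cells of each library (log2 ratio 6.66, 4.09 to 12.0, in the knock-in library). Lat, its T cell counterpart, fell by 2.88. Of 16 adaptors and kinases tested, 7 rose, among them the tyrosine kinase Syk (2.10) and Plcg2 (2.51), and 4 fell, among them Hcst (-0.42) and Lck (-0.61). With UMI totals 8 rose and 2 fell, and neither Hcst (-0.02, edgeR adjusted p = 0.93) nor Lck (-0.20, adjusted p = 0.43) passed; Hcst had 827 CPM in knock-in and 895 CPM in wild-type NK cells, against 792 CPM in knock-in and 949 CPM in wild-type CD8 T cells. The list's median log2 fold change was 0.24, beside -0.01 over all genes tested.

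Of the 12 activating receptors outside the rule, 7 rose and 1 fell, with a median of 2.48. Klrk1 (NKG2D, a receptor for stress-induced ligands) had 418 CPM in knock-in and 384 CPM in wild-type NK cells, against 51.2 CPM in knock-in and 21.2 CPM in wild-type CD8 T cells (3.06 ± 0.22). Fcgr3, the Fc receptor for antibody-coated targets, rose by 4.86, with 19 UMIs in knock-in and 36 UMIs in wild-type NK cells and 0 and 2 UMIs in knock-in and wild-type CD8 T cells, and the costimulator Tnfrsf9 by 3.44. Slamf6 fell by 2.93. Of 11 genes on the list of inhibitory receptors, 9 rose and 0 fell, with a median of 2.04. Klra9 (chr6:130178675-130193112, minus strand, in the cluster that also holds Klra4 and Klra8) had 188 CPM in knock-in and 189 CPM in wild-type NK cells, with 1 UMI in knock-in and 0 in wild-type CD8 T cells (log2 ratio 7.37, 4.84 to 12.7, in the knock-in library). Against a floor of 3 UMIs in the wild-type CD8 sum it was at least 41.6-fold higher in wild-type NK cells. Klri2 was counted on this list, though whether it inhibits was not tested. It had 220 CPM in knock-in and 208 CPM in wild-type NK cells, and 3 and 0 UMIs in knock-in and wild-type CD8 T cells. Against the same floor, wild-type NK cells were at least 45.9-fold higher. Klrd1 (CD94) and Klrc1 (NKG2A) rose by 1.28 and 0.89, and CD8 T cells of the knock-in library held them at 138 and 111 CPM.

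Among 18 genes of the cytotoxic granule, 10 rose, 2 fell and the median was 1.16. Gzma had 6442 CPM in knock-in and 5593 CPM in wild-type NK cells, against 70.5 CPM in knock-in and 339 CPM in wild-type CD8 T cells, where 1 cell held 87.5% of the wild-type UMIs (log2 fold change 4.65 ± 0.31). Gzmb had 805 CPM in knock-in and 545 CPM in wild-type NK cells, against 58.0 CPM in knock-in and 40.8 CPM in wild-type CD8 T cells (3.37 ± 0.17). Prf1, the pore-forming perforin, had 482 CPM in knock-in and 384 CPM in wild-type NK cells, against 23.9 CPM in knock-in and 25.7 CPM in wild-type CD8 T cells (3.73 ± 0.22). Serpinb9, which protects the killer from granzyme B, rose by 3.19 and the death ligand Fasl by 1.85. The granzymes Gzmk and Gzmm went the other way and fell by 1.86 and 1.52.

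The promoters of Gzma, Gzmb and Prf1 are shown because these 3 effector genes were all higher in NK cells. Each is 250 bases before to 50 bases after the RefSeq start site, build GRCm38.p6, read 5′ to 3′ on the gene's strand. Capitals mark matches, on either strand, to the RUNX core TGTGGT and to the AP-1 motif TGANTCA.
Gzma, chr13:113100932-113101231, minus strand: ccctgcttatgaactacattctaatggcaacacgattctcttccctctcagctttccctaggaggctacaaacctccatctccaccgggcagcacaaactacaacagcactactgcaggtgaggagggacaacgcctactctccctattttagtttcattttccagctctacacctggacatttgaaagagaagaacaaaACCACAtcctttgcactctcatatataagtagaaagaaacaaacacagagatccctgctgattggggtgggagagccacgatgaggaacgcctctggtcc
Gzmb, chr14:56262285-56262584, minus strand: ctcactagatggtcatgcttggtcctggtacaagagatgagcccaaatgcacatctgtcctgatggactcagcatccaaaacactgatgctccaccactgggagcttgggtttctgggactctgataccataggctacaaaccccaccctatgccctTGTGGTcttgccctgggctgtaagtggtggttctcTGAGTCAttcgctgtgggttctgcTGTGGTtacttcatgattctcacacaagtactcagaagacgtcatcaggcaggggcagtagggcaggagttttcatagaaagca
Prf1, chr10:61297586-61297885, plus strand: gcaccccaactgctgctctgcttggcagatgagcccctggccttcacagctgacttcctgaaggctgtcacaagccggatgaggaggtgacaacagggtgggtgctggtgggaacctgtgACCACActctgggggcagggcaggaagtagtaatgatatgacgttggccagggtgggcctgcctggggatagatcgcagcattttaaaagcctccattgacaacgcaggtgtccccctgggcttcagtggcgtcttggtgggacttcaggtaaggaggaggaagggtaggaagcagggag
The RUNX core, whose factors include Runx3 of cytotoxic lymphocytes, matched 1 time in Gzma, 2 times in Gzmb and 1 time in Prf1, and was present in 16.8% of 32851 promoters of this length. AP-1 matched 1 time in Gzmb and was present in 7.81% of promoters. The T-box core GGTGTG, searched for because Tbx21 and Eomes are T-box factors, did not occur in these 3 windows and was present in 19.0% of promoters. A match of letters is a description and shows no binding.

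Of 8 cytokine and chemokine genes, 5 rose and 1 fell, with a median of 2.48. Ccl3 (MIP-1 alpha) gave 330 UMIs in knock-in and 285 UMIs in wild-type NK cells, or 1054 and 424 CPM, against 3 UMIs in knock-in and 2 UMIs in wild-type CD8 T cells. The log2 ratio was 8.27 (6.71 to 10.6, counting interval) in the knock-in and 7.13 (5.27 to 10.2) in the wild-type library. Ccl4 (MIP-1 beta) had 3210 CPM in knock-in and 1575 CPM in wild-type NK cells, against 43.2 CPM in knock-in and 132 CPM in wild-type CD8 T cells (4.37 ± 0.32). Ifng rose by 3.62 and Xcl1, a chemokine that attracts cross-presenting dendritic cells, by 2.85. Ltb (lymphotoxin beta) fell by 1.88.

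Of 19 cytokine receptors, 7 rose and 5 fell. Il2rb, the beta chain shared by the IL-2 and IL-15 receptors, had 846 CPM in knock-in and 1164 CPM in wild-type NK cells, against 233 CPM in knock-in and 307 CPM in wild-type CD8 T cells (1.48 ± 0.13). The IL-12 receptor chain Il12rb2 rose by 2.04 and the IL-18 receptor chain Il18rap by 2.09. Il7r, the receptor of naive and memory T cells, fell by 3.96 and Il6ra by 5.28, the last with 1 UMI in knock-in and 0 in wild-type NK cells. Of 20 homing and adhesion genes, 9 rose and 5 fell. Those that rose included the integrins Itgam (5.87, with 0 UMIs in knock-in and 1 in wild-type CD8 T cells), Itga2 (4.46, the CD49b used to stain mouse NK cells, with 2 UMIs in knock-in and 1 in wild-type CD8 T cells) and Itgax (4.26) and the chemokine receptor Ccr2 (3.89). Those that fell included Ccr7, which guides T cells to lymph nodes (-4.07), and the egress receptor S1pr1 (-2.58).

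Of 23 transcription factors, 9 rose and 5 fell. Irf8 had 1303 CPM in knock-in and 1533 CPM in wild-type NK cells, against 21.6 CPM in knock-in and 15.1 CPM in wild-type CD8 T cells (5.82 ± 0.20). Id2, which restrains E proteins in innate lymphocytes, rose by 2.66, Zeb2 by 2.35, Tbx21 (T-bet) by 1.76 and Eomes by 1.49. Id3 (-4.68), Bcl11b (-4.90), Lef1 (-2.85) and Tcf7 (-1.39), factors of the T lineage and of resting T cells, fell. Hhex, a homeobox factor needed by NK cells in mice, gave 41 UMIs in knock-in and 59 UMIs in wild-type NK cells and 0 UMIs in CD8 T cells of both libraries, at least 38.4-fold higher in the knock-in and at least 19.3-fold higher in the wild-type library against a floor of 3 UMIs per library. Cma1, a mast cell protease gene, likewise gave 43 UMIs in knock-in and 88 UMIs in wild-type NK cells and 0 UMIs in CD8 T cells, at least 40.3-fold higher in the knock-in and at least 28.9-fold higher in the wild-type library.

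T cell genes were mostly lower in NK cells, with 17 of 19 lower and 1 higher (14 lower and 1 higher with UMI totals). NK cells were chosen without Cd3 UMIs and CD8 T cells with them, so this direction was partly built into the classes. Trac had 31.9 CPM in knock-in and 43.2 CPM in wild-type NK cells, against 572 CPM in knock-in and 489 CPM in wild-type CD8 T cells (-4.14 ± 0.20), whereas Trbc1 had 578 CPM in knock-in and 546 CPM in wild-type NK cells, against 681 CPM in knock-in and 592 CPM in wild-type CD8 T cells (-0.58; -0.17 and not called with UMI totals, edgeR adjusted p = 0.28). The gene that rose was Trdc (2.23), the delta chain constant segment. Outside the lists, the named genes that fell furthest were Tdrp and Nsg2, each with 0 UMIs in NK cells of both libraries, Tdrp at least 15.2-fold lower in the knock-in and at least 30.2-fold lower in the wild-type library, and Nsg2 at least 7.95-fold and at least 15.9-fold lower in the knock-in and in the wild-type library. Ifi27l2a, an interferon-inducible gene of the type I list, fell by 5.38.

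Of 25 immediate early and activation genes, 16 were higher in NK cells and 1, Cd69, lower (-0.81), with a median of 0.84. Nr4a1 rose by 1.79, Myc by 1.77, Dusp1 by 1.53, Fos by 1.36 and Junb by 1.08. Of 21 type I interferon genes, 2 rose and 5 fell (median -0.23), and of 17 interferon gamma genes, 1 rose and 5 fell (median -0.38). With UMI totals both medians turned positive (0.19 and 0.03), with 5 higher and 5 lower type I and 3 higher and 1 lower interferon gamma genes. In the MHC class I list 3 of 16 rose, H2-K1 (0.72), H2-D1 (0.62) and H2-Q6 (0.81), and 0 fell, and these are close copies of each other. With UMI totals 8 of 16 rose and the median was 0.42, against 0.01. DESeq2 called 155 genes higher and 187 lower, and Cma1 and Hhex did not pass there (adjusted p = 0.33 and 0.38).

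**Figure D2:**
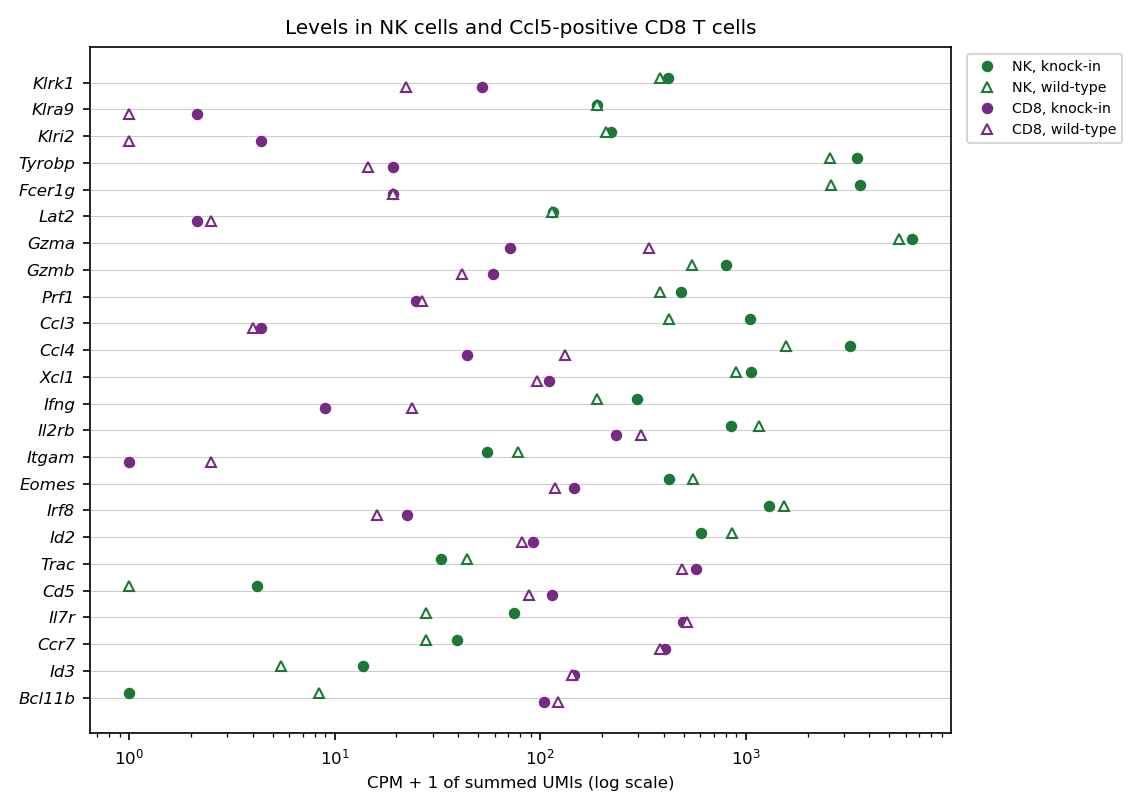
Levels of 24 genes as CPM + 1 of summed UMIs (log axis) in NK cells (green, upper row of each gene) and Ccl5-positive CD8 T cells (purple, lower row); filled circles are the knock-in and open triangles the wild-type library. The receptor, adaptor, granule and chemokine genes at the top lie to the right in NK cells. Trac, Cd5, Il7r, Ccr7, Id3 and Bcl11b at the bottom lie to the right in CD8 T cells. All 24 genes have the same direction in both libraries, but they were picked for display. Over all genes tested, 4515 of 6050 had the same direction in both libraries.

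**Figure D3:**
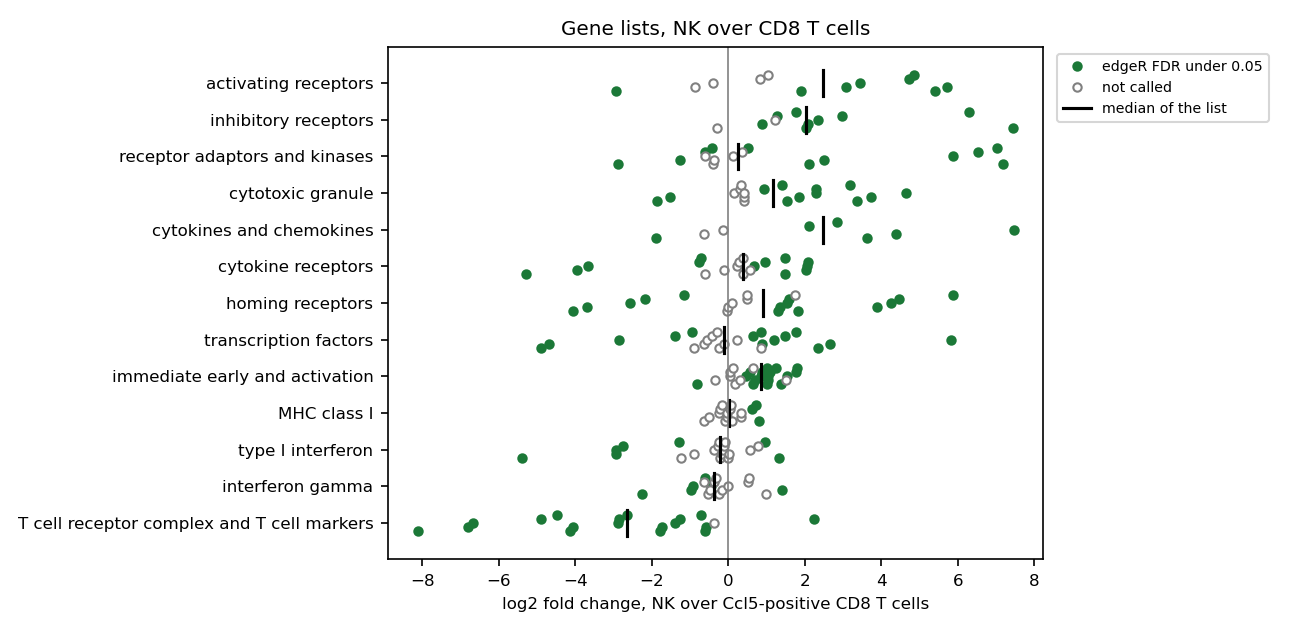
Log2 fold change of NK over CD8 T cells for each tested member of 13 gene lists, with one row per list; filled points passed edgeR's adjusted p of 0.05, open points did not, and the black bar is the list's median. Medians run from -2.65 for T cell genes to 2.48 for activating receptors and for cytokines and chemokines.

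Members were split by maturation from their own UMIs. A cell was called mature where the sum of Itgam, Klrg1, S1pr5, Zeb2 and Cma1 was above the sum of Cd27, Ctla2a, Emb, Ltb and Tcf7, immature where it was below, and was not called at a tie. By this split 17 knock-in and 43 wild-type members were mature, 111 knock-in and 192 wild-type members were immature, and 15 knock-in and 27 wild-type members were not called. The mature share of called cells was 13.3% in the knock-in (7.93% to 20.4%) and 18.3% in the wild-type library (13.6% to 23.8%), and these intervals overlapped. The split was lopsided: Ctla2a and Emb held 87.6% of the immature-side UMIs in knock-in and 86.3% in wild-type members. Mature cells were also shallower, at a median of 1496 UMIs in knock-in and 1862 UMIs in wild-type cells, against 2267 UMIs in knock-in and 2497.5 UMIs in wild-type immature cells, and 33 knock-in and 59 wild-type members lay within 1 UMI of the boundary. A second split, chosen after the data had been seen, left Ctla2a and Emb out of the immature side. It called 44 knock-in and 102 wild-type members mature and 40 knock-in and 75 wild-type members immature, a mature share of 52.4% in the knock-in (41.2% to 63.4%) and 57.6% in the wild-type library (49.99% to 65.0%).

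Mature cells had a higher level of granzyme A. Gzma had 16139 CPM in knock-in and 11465 CPM in wild-type mature cells, against 5257 CPM in knock-in and 4435 CPM in wild-type immature cells, a log2 fold change of 1.37 ± 0.094 (SE; edgeR quasi-likelihood, adjusted p = 0.0084). It was the 1 gene called higher of 2709 tested (0.0369%), with 0 called lower, and 320 genes had an unadjusted p under 0.05. Genes of the rule and of the split were left out of this test. The other genes given here did not pass, and Gzmb, Prf1, Ly6c2, S100a6 and Lgals1 each had an adjusted p of 0.066. Gzmb had 2703 CPM in knock-in and 1049 CPM in wild-type mature cells, against 568 CPM in knock-in and 419 CPM in wild-type immature cells, a log2 fold change of 1.62. Prf1 had 1175 CPM in knock-in and 841 CPM in wild-type mature cells, against 409 CPM in knock-in and 306 CPM in wild-type immature cells (1.37). Ly6c2, a surface protein whose close copy Ly6c1 may share its reads, had a log2 fold change of 2.23, the calcium-binding S100a6 one of 1.39 and the galectin Lgals1 one of 0.93. Xcl1 stood at -1.29 (adjusted p = 0.11) and Cd7 at -1.68 (adjusted p = 0.14).

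The count of called genes depended on the choices made, from 1 gene here to 119 with a 5% mitochondrial limit. Under the second split 32 of 2452 genes were higher (1.31%) and 83 lower (3.38%), 4.69% in either direction. Of 16 tested genes of the mature programme that no split used, 10 were higher there and 0 lower, with a median of 0.82. Gzmb rose by 2.04, Ly6c2 by 2.04, Prf1 by 1.25, Gzma by 1.33, Nkg7 by 0.50 and Irf8 by 0.46, and the Ly49 receptors Klra9 and Klra3 by 1.37 and 1.42. Of 4 immature programme genes 2 were lower, Cd7 (-0.87) and the Helios factor Ikzf2 (-2.27). Of 79 ribosomal protein genes, counted after their values had been seen, 54 were lower and 0 higher, with a median of -0.41. The splits disagreed on chemokines. Ccl3 had 2050 CPM in knock-in and 579 CPM in wild-type mature cells of the second split, against 847 CPM in knock-in and 99.0 CPM in wild-type immature cells, and rose by 1.67. In the first split its log2 fold change was -0.61 (edgeR adjusted p = 0.61). Xcl1, at -1.29 in the first split, was at -0.02 in the second.

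**Figure D4:**
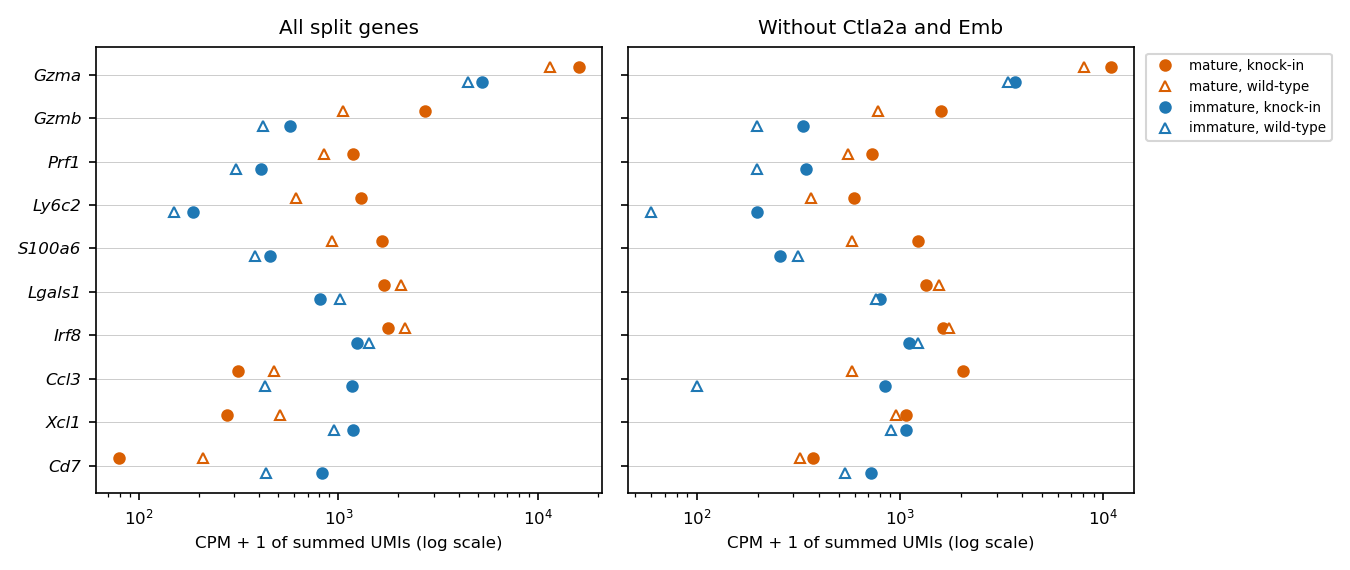
CPM + 1 of summed UMIs (log axis) for 10 genes in mature (orange, upper) and immature (blue, lower) NK cells; filled circles are the knock-in and open triangles the wild-type library. In both splits Gzma, Gzmb, Prf1, Ly6c2, S100a6, Lgals1 and Irf8 are higher in mature cells of each library, while Ccl3 and Xcl1 differ between the splits.

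Genes that mark other states were counted in the members. Eomes, which separates conventional NK cells from most group 1 innate lymphoid cells (ILC1) in the mouse, was found in 64 of 143 knock-in and 163 of 262 wild-type members, 44.8% of knock-in (36.4% to 53.3%) and 62.2% of wild-type members (56.0% to 68.1%). In B cells the shares were 0.0542% in the knock-in and 0.174% in the wild-type library. With members thinned to 1000 UMIs each, the shares were 27.9% in knock-in and 38.0% in wild-type members. At least 2 UMIs summed over the ILC1 markers Tmem176a, Tmem176b, Cxcr6, Il7r, Itga1 and Cd200r1 were found in 12 knock-in and 9 wild-type members. Of these, 10 knock-in and 7 wild-type members held no Eomes UMI. A longer list of 9 ILC1 markers does not mark ILC1 alone. At least 2 of its UMIs were held by 8.39% of knock-in and 3.82% of wild-type members. The shares in CD8 T cells were 59.5% in the knock-in and 61.0% in the wild-type library. A UMI of Mki67 or Top2a, genes of dividing cells, was found in 2 knock-in and 13 wild-type members. Top2a alone was found in 1.40% of knock-in and 4.96% of wild-type members, against 3.20% of knock-in and 3.47% of wild-type B cells, so these counts do not stand clear of the level in other cells.

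Between genotypes, NK cells of the knock-in library had higher levels of the chemokines Ccl3 and Ccl4, of the transcription factors Klf2 and Hopx, and of 6 of 23 immediate early and activation genes, Myc among them. They had lower levels of Mt1 and Atp5k. Integrin Itga2 and the IL-12 receptor chain Il12rb2 were lower too, with wide counting intervals given below. These 2 genes came from lists with 3 of 15 and 2 of 12 measured genes lower, beside 10.6% of all genes. Genes with at least 50 UMIs summed over both libraries were compared as log2 ratios of CPM, knock-in over wild-type, and called at 0.58 in size (1.5-fold). Of 2770 genes, 194 (7%) were higher and 294 (10.6%) lower, 17.6% in either direction, and the median was -0.03. In CD8 T cells of the same libraries 10.5% of 3138 genes were higher and 5.45% lower. Klf2 was higher there too (0.60), and Mt1 (-0.57) and Atp5k (-0.54) lay just under the fold. Hopx (0.18) and Myc (-0.07) lay further from it, and Ccl4 went the other way (-1.61).

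Of 7 measured cytokine and chemokine genes, 4 passed the fold upward and 0 downward, around a median of 0.59 (0.03 to 1.31). Ccl3 had 1054 CPM in knock-in and 424 CPM in wild-type NK cells, a log2 ratio of 1.31 (1.08 to 1.55). Ccl4 had 3210 CPM in knock-in and 1575 CPM in wild-type NK cells (1.03, 0.90 to 1.15); 1 knock-in cell held 29.5% of its UMIs and 1 wild-type cell 19.6%, and the ratio was 0.84 without them. Ifng had 294 CPM in knock-in and 188 CPM in wild-type NK cells (0.65, 0.24 to 1.05), but stood under the fold without the highest cell of each library (0.56), with each cell weighted equally (0.41) and thinned to 1000 UMIs (0.41). Ltb passed by little (0.59, -0.16 to 1.32) and stood at 0.53 without the highest cells. Ccl5 (0.19), Xcl1 (0.25) and Tgfb1 (0.03) did not pass the fold.

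Of 23 immediate early and activation genes, 6 were higher and 1 lower, around a median of 0.30 (0.08 to 0.57), beside -0.06 for the same list in CD8 T cells. Myc had 262 CPM in knock-in and 98.2 CPM in wild-type NK cells (1.41, 0.93 to 1.90). Fos had 476 CPM in knock-in and 247 CPM in wild-type NK cells (0.95, 0.62 to 1.27), and Nr4a1 had 399 CPM in knock-in and 213 CPM in wild-type NK cells (0.91, 0.55 to 1.26). Dusp1 passed by little (0.59, 0.30 to 0.87) and stood at 0.54 without the highest cells and at 0.29 with each cell weighted equally. Nr4a3 went the other way, with 192 CPM in knock-in and 310 CPM in wild-type NK cells (-0.69, -1.13 to -0.27). Outside this list the stress genes Gadd45b (1.35) and Atf3 (1.28) were among the 10 highest named genes, with Rrad (1.57), of which 1 knock-in cell held 55.3% and which stood at 0.53 without the highest cells. In CD8 T cells Rrad was higher as well (1.12), Gadd45b lay under the fold (0.44) and Atf3 was lower (-0.64).

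Of 14 granule genes 2 were higher, Ctsw (0.61, 0.38 to 0.85; 0.55 with each cell weighted equally) and Lamp1 (0.73), and 0 lower, with a median of 0.27. Gzmb had 805 CPM in knock-in and 545 CPM in wild-type NK cells (0.56, 0.33 to 0.80), Prf1 had 482 CPM in knock-in and 384 CPM in wild-type NK cells (0.33, 0.03 to 0.62), and Gzma had 6442 CPM in knock-in and 5593 CPM in wild-type NK cells (0.20, 0.13 to 0.28). Of 8 genes on the list of inhibitory receptors, Klra7 (0.90, 0.53 to 1.27) and Lilrb4a (0.83, 0.07 to 1.58) were higher. Tyrobp (0.43) and Fcer1g (0.47) lay under the fold. Ncr1, a gene of the rule, had 265 CPM in knock-in and 147 CPM in wild-type members (0.85), which is given as a description.

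Of 12 cytokine receptors, 2 were lower, Il12rb2 (-1.04, -2.08 to -0.12) and Il18rap (-0.59, -1.10 to -0.09; -0.36 with each cell weighted equally), and 1 was higher, Ifnar2 (0.71, -0.08 to 1.49). Il2rb had 846 CPM in knock-in and 1164 CPM in wild-type NK cells (-0.46, -0.67 to -0.26). Of 15 homing and adhesion genes, 3 were lower and 0 higher, among them Itga2 (-1.08, -2.07 to -0.20) and Cd44 (-0.61, -1.25 to -0.0034). Among 17 transcription factors, Klf2, which keeps lymphocytes quiescent and recirculating, had 1536 CPM in knock-in and 749 CPM in wild-type NK cells (1.04, 0.85 to 1.22), and Hopx had 192 CPM in knock-in and 74.4 CPM in wild-type NK cells (1.36, 0.80 to 1.94). Nfil3 (0.62; 0.57 without the highest cells) was the third that was higher. Runx3, a RUNX factor of the kind whose core is marked in the promoters above, was lower, with 386 CPM in knock-in and 600 CPM in wild-type NK cells (-0.63, -0.94 to -0.34; -0.54 thinned to 1000 UMIs). Eomes (-0.38) and Id2 (-0.51) lay under the fold.

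Interferon lists held few measured members. Of 5 type I genes, 1 was higher, Isg15 (0.78, -0.06 to 1.60), and 0 lower. Of 9 interferon gamma genes, the immunoproteasome subunit Psmb10 was higher (0.69, 0.16 to 1.20) and the chemokine Cxcl10 lower, with 4 UMIs in knock-in and 50 UMIs in wild-type NK cells, of which 1 wild-type cell held 40%. Among 11 MHC class I genes, whose median was 0.23 (0.15 to 0.41), H2-T23 (Qa-1, the ligand of CD94/NKG2A) was higher, with 355 CPM in knock-in and 201 CPM in wild-type NK cells (0.82, 0.44 to 1.19).

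The lower named genes were led by the metallothionein Mt1, with 54.3 CPM in knock-in and 164 CPM in wild-type NK cells (-1.59, -2.42 to -0.85), and the ATP synthase subunit Atp5k (-1.36, -1.94 to -0.82). Stmn1 (-1.28), Tuba1b (-1.09) and Tubb5 (-1.002) code for tubulins or a tubulin-binding protein that dividing cells use. With each cell weighted equally they stood at -0.56, -0.52 and -0.44, under the fold. For each gene a single wild-type member held a large part of the wild-type sum, 22.8% for Stmn1, 23.2% for Tuba1b and 18.5% for Tubb5. Once the top cells were left out, Stmn1 (-1.12), Tuba1b (-0.85) and Tubb5 (-0.79) still passed the fold. Of 5 measured genes of the cell cycle list 2 were lower and 0 higher, with a median of -0.22. Cd74 had 89.4 CPM in knock-in and 198 CPM in wild-type NK cells (-1.15, -1.79 to -0.55). B cell markers' summed level in NK cells was 447 CPM in the knock-in and 519 CPM in the wild-type library over 13 genes (10 detected in knock-in and 12 in wild-type members), with Iglc2 and Pax5 among those at 0 in knock-in and Cd79b at 0 in wild-type members, and their part in the result was not tested. Lyz2 had the highest ratio of the named genes (7.66, 5.78 to 10.7), with 188 UMIs in knock-in and 2 UMIs in wild-type members, from the 1 cell described above.

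**Figure D5:**
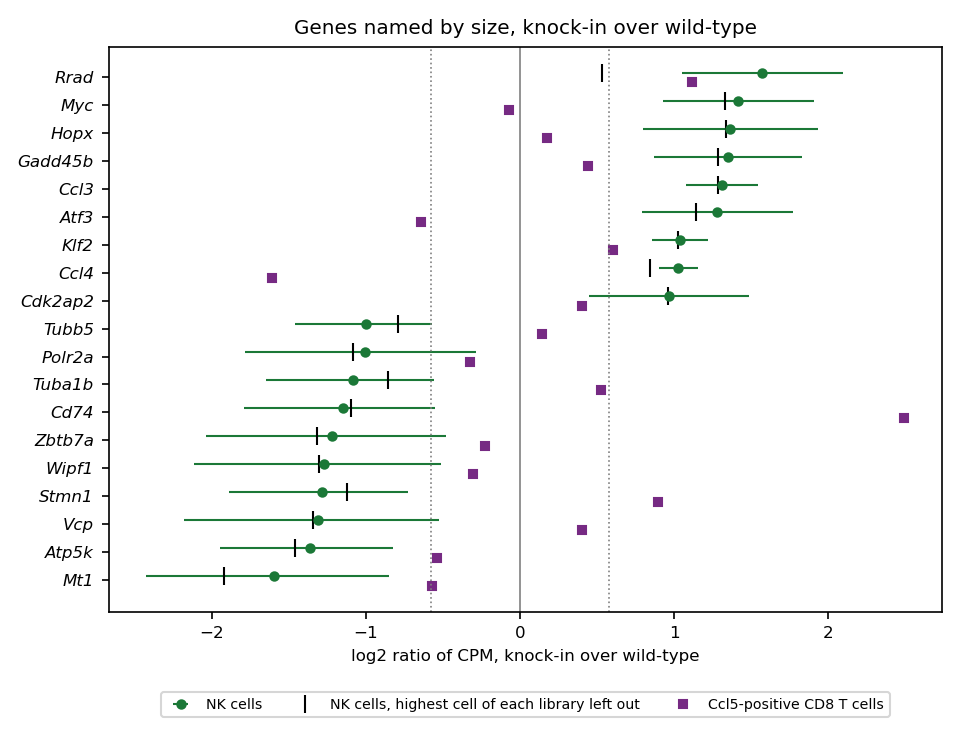
Log2 ratio of CPM, knock-in over wild-type, for 19 of the 20 genes named by size (Lyz2, whose knock-in UMIs lay in 1 cell, is not drawn). Green circles with exact 95% counting intervals are NK cells, black bars NK cells without the highest cell of each library, purple squares Ccl5-positive CD8 T cells, and dotted lines mark 0.58; Atf3, Ccl4, Cd74 and Stmn1 lie past the fold in opposite directions in the 2 cell types.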

How the data were processed

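Single-cell 3' libraries (10x Genomics v3.1 chemistry, target 10000 cells) of knock-in and wild-type splenocytes, 1 per genotype, were analysed. The authors deposited UMI counts without normalization. The matrix headers give Cell Ranger 6.1.2 as their source, whereas 7.1.0, Seurat 5.0.3 and mm10 stand in the submitters' processing notes. How barcodes were selected is not given in the sources used here. All 32285 features were read, and no barcode was removed as a doublet: Scrublet (scanpy 1.11.5) marked 2.03% of knock-in and 2.28% of wild-type barcodes and 0 NK members.

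UMIs were summed per library and class. Contrasts between classes used edgeR 4.0.16 (R 4.3.3, TMM, filterByExpr, library block), with DESeq2 1.42.0 as an alternative. Each SE was derived from the edgeR test, as the size of the log2 fold change over the square root of its F statistic. Intervals are exact (Poisson, Clopper-Pearson, conditional binomial; 95%); list medians carry order-statistic intervals over genes, which are not independent. Both contrasts were tested on simulated data. Genes were named if they were on a list or among the 10 highest and 10 lowest called genes with at least 100 UMIs, without rule genes, model names, antigen receptor segments, haemoglobin, and sex-linked, mitochondrial or ribosomal protein genes. Members, lists and rules were chosen with earlier results of these data known. Alternatives changed cell filters, the rule, depth, scaling and the split; UMI totals and 1 split were added after seeing the data. Promoters came from RefSeq (GRCm38.p6). Some genes are not reported here.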

Additional observations from a re-analysis of the deposited data

Results flagged for a closer look

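The genotypes differed in opposite directions in NK cells and in Ccl5-positive CD8 T cells for the 2 shares and for 4 genes past the fold in both; with 1 library per genotype these differences between the cell types were not tested. The share of NK cells had a log2 ratio of -0.69, knock-in over wild-type, and that of the CD8 T cells one of 0.67. Ccl4 stood at 1.03 in NK cells and at -1.61 in CD8 T cells, where it had 43.2 CPM in the knock-in and 132 CPM in the wild-type library. Atf3 stood at 1.28 in NK cells and -0.64 in CD8 T cells. Stmn1 stood at -1.28 in NK cells and 0.89 in CD8 T cells. Cd74 stood at -1.15 in NK cells and 2.49 in CD8 T cells, where 1 knock-in cell held 88.4% of its 292 UMIs.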

How the results depend on the processing

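The lower NK share kept its direction under all 8 alternatives and moved outside its interval without members holding Trac, Trbc1 or Trbc2 UMIs (-1.003). Counts of genes past the fold between genotypes (194 higher, 294 lower) were 234 and 247 with TMM factors and 162 and 376 without the highest cell of each library. They became 75 and 76 without those members, 92 and 123 with members thinned to 1000 UMIs, 84 and 91 at a minimum of 100 UMIs and 499 and 927 at 20 UMIs, and 171 were lower with the rule without Klra8 and Klra4. The MHC class I median was 0.060 without T cell receptor UMIs. Of the NK over CD8 T cell calls, 155 higher and 187 lower remained with DESeq2, 218 and 248 genes were called with thinned members, 258 and 290 without T cell receptor UMIs, and 1591 and 346 with UMI totals in place of TMM factors. The maturation count of 1 became 18 with DESeq2, 105 with RLE size factors, 75 with UMI totals, 45 without a low-count filter, 119 at 5% mitochondrial UMIs, 88 with a margin of 2 UMIs, 60 with one side detected alone, 12 with Cd27 and Itgam alone and 115 with the split chosen after seeing the data.

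Both libraries hold both classes, so the library pairs the sums by design; without this replicate block 14 genes were called for maturation, and 459 were higher and 442 lower in NK cells. Leaving out 1 library leaves no residual degree of freedom, so it gives no test and no count. The log2 ratio of the mature share, -0.46, stayed within its interval under all alternatives run, though the shares themselves ran up to 52.4% in knock-in and 57.6% in wild-type members; it was 0.37 without T cell receptor UMIs and 0.14 with one side detected alone. Among named genes, 285 of 288 NK over CD8 T cell results and 41 of 51 genotype results stayed the same and 0 reversed. For maturation, 31 results stayed the same and 53 passed where the reported fit did not. The NK over CD8 and maturation counts include removal of Scrublet doublets, which marked no NK or CD8 T cell and so could change nothing. The mature knock-in sum held 25528 UMIs, also under the 5% mitochondrial limit, where the other sums fell, the wild-type mature one from 86784 to 77712 UMIs. What part depth had in the number of maturation calls was not tested. Between genotypes, depth limits which genes could be compared, 2770 with at least 50 UMIs.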
